A study of Mus musculus with 8 samples.

Results

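The genes described here encode the proteins that license DNA replication origins and copy DNA: the origin recognition complex, the loaders of the MCM helicase and the helicase itself, the factors that fire origins, the replicative polymerases with their clamp and clamp loader, and the enzymes that join fragments, supply nucleotides and assemble chromatin behind the fork. They were listed by function, as 49 named genes, with earlier results of these data known. An array value was found for 46 of them, among 15653 genes named on the array; Gins1, Pcna and Chaf1a had no probe set with a matching name. Where a gene had more than 1 distinct probe set, the one with the highest mean over the arrays was used.

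The study measured mRNA in mouse cell lines whose division pattern is set by p53 and by IMPDH II, the rate-limiting enzyme of guanine nucleotide synthesis. The 8 Affymetrix mouse arrays were 3 of Ind-8 cells, 3 of Con-3 cells and 2 of tI-3 cells. All lines derive from p53-null murine fetal fibroblasts and were grown for 48 h with 65 µM ZnCl2, 5 µg/ml puromycin and 10% dialyzed serum. Ind-8 cells (asymmetric self-renewal, ASYM) carry a p53 cDNA behind a modified human metallothionein promoter that zinc turns on. Con-3 cells (symmetric, SYM) make no p53; the labels describe the line as a congenic parent, and the study's methods as a vector control. The tI-3 line (symmetric with p53, p53SYM) is an Ind-8 derivative that also expresses an IMPDH II cDNA constitutively, and it was kept in G418, a dose for which the labels and the methods give different units. Since every state comes from a single clone, a difference of state and a difference of clone cannot be told apart. With 2 or 3 arrays a line, their number limits how precise the values can be.

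A cell licenses an origin in G1 when the origin recognition complex, CDC6 and CDT1 load the MCM2-7 ring onto DNA, and geminin then binds CDT1 and blocks reloading until mitosis is over. The kinase CDC7 with its partner DBF4 starts the loaded helicase by bringing in CDC45 and the GINS complex, after which polymerase alpha with primase lays down primers that polymerases delta and epsilon extend. Transcription of many of these genes is tied to the cell cycle through E2F factors, and p53 is known to repress many cell cycle genes by way of its target Cdkn1a, the gene of the CDK inhibitor p21.

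The array values are on the log2 scale, so that a difference of 1 is a doubling. On that scale the p53 target Cdkn1a read 9.70, 9.70 and 9.59 in Ind-8 cells, 5.73, 5.81 and 6.03 in Con-3 cells, and 7.55 and 7.33 in tI-3 cells. The lines did not overlap, with Ind-8 highest and tI-3 between the others. Cdkn1a was higher by 3.81 in Ind-8 than in Con-3 (limma adjusted p 1.91e-08), by 2.22 in Ind-8 than in tI-3 (limma adjusted p 3.58e-06) and by 1.59 in tI-3 than in Con-3 (limma adjusted p 1.93e-05). The Con-3 values lay under the median probe set of 6.17, and the study scored the gene as absent in that state. Differences from Con-3 are therefore between array values and do not measure a ratio of mRNA. Adjusted p-values here are taken over all 22523 probe sets tested, and a gene is called changed when its adjusted p is under 0.05. Trp53 itself read 5.68, 5.87 and 5.80 in Ind-8, 5.21, 5.29 and 5.27 in Con-3, and 5.60 and 5.69 in tI-3. Every array of the p53-carrying lines lay above every Con-3 array, by a small amount. All of these values lay under the median probe set, and whether they stood above background was not tested. As array values they differed by 0.53 between Ind-8 and Con-3 (limma adjusted p 0.00192), 0.14 between Ind-8 and tI-3 (limma adjusted p 0.282) and 0.39 between tI-3 and Con-3 (limma adjusted p 0.0144). The last call was lost without tI-3 replicate 2 (0.109) and with the hybridization controls as a covariate (0.37, adjusted p 0.0616), in a range of 0.0123 to 0.109 over 20 alternative limma fits and thresholds.

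The label of tI-3 rests on IMPDH II. Impdh2 read 12.16, 12.20 and 12.22 in Ind-8, 12.51, 12.56 and 12.53 in Con-3, and 12.35 and 12.38 in tI-3. The tI-3 arrays lay between the others and did not overlap with them. The study describes the p53SYM state as having more IMPDH II expression than the SYM state, which these array values do not show. Impdh2 was lower in Ind-8 than in Con-3 by 0.34 (limma adjusted p 0.0108), and it was not called in tI-3 against either line, at -0.17 for Ind-8 minus tI-3 (limma adjusted p 0.163) and -0.17 for tI-3 minus Con-3 (limma adjusted p 0.182). Whether the probes for Trp53 and Impdh2 lie within the cDNAs that the lines carry was not tested.

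Of 12 fibroblast markers, 10 lay above the median probe set, led by Vim at 13.9, and Thy1 and Fap lay under the 25th percentile of 4.30. The mean of the fibroblast list was 9.61 in Ind-8, 9.39 in Con-3 and 9.15 in tI-3. Limma called 3 of the 12 lower and 4 higher in tI-3 than in Con-3. The 3 lower, named after their values were seen, were Col1a1 (10.85, against 11.91 in Con-3 and 12.34 in Ind-8), Col3a1 (6.38, against 8.80 in Ind-8 and 9.07 in Con-3) and Pdgfra (6.02, against 7.54 in Ind-8 and 7.06 in Con-3). The 4 higher were Fn1 (by 0.28), Thy1 (by 0.37), Pdgfrb (by 0.33) and Twist1 (by 0.50). Between Ind-8 and Con-3, 1 was lower and 3 were higher in Ind-8, and against tI-3, 1 was lower and 5 were higher. None of 5 endothelial markers lay above the median probe set, with 4 under the 25th percentile. The brightest, Kdr, averaged 6.15, and the list means were 4.30 in Ind-8, 4.46 in Con-3 and 4.58 in tI-3. Later list means are in the same order. The blood cell marker Cd3e averaged 5.45, also under the median probe set. Limma called it lower in Ind-8 than in tI-3 (-0.43) and higher in tI-3 than in Con-3 (0.42). Adgre1 was called lower in Ind-8 than in tI-3 (-0.36). Of the endothelial markers limma called Kdr alone, which was lower in Ind-8 than in Con-3 (-0.32) and than in tI-3 (-0.76) and higher in tI-3 than in Con-3 (0.44). Of 5 neural markers, Nes alone was above the median, at 6.46 in Ind-8, 6.91 in Con-3 and 6.75 in tI-3, and the list means were 4.92, 5.12 and 5.08. Limma called Nes lower in Ind-8 than in Con-3 (-0.45), Sox10 lower in Ind-8 than in tI-3 (-0.48), and Tubb3 higher in Ind-8 than in tI-3 (0.39) and lower in tI-3 than in Con-3 (-0.52). Of 6 epithelial markers, Krt19 alone was above it, at 10.35 in Ind-8, 9.52 in Con-3 and 9.31 in tI-3, and the list means were 5.24, 5.08 and 5.19. It was the only 1 of them called, higher in Ind-8 than in Con-3 and than in tI-3. Any part of these marker differences in the results below was not tested.

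The control probe sets of the arrays also varied. The 14 hybridization controls averaged 9.04, 8.98 and 9.03 on the Ind-8 arrays, 9.05, 9.16 and 9.62 on the Con-3 arrays, and 9.43 and 9.71 on the tI-3 arrays. They were thus higher on both tI-3 arrays than on any Ind-8 array. The 3 probe sets for 18S rRNA averaged 10.6 on Con-3 replicate 3 and between 5.58 and 6.46 on the other arrays. The 5′ minus 3′ value of the actin controls, a sign of RNA quality, ran from -0.192 to -0.141 on the Ind-8 arrays and from -0.135 to -0.110 on the Con-3 arrays, and it was -0.0578 and -0.0695 on the tI-3 arrays. It thus separated the lines without overlap, whereas that of Gapdh overlapped, at 0.109 to 0.215 in Ind-8, 0.184 to 0.213 in Con-3, and 0.205 and 0.206 in tI-3. The upper quartile of each array was lowest on the tI-3 arrays, at 8.17 and 8.12, against 8.26 to 8.33 on the others. The part of these differences in the results was not tested beyond the fits without that array, or with the hybridization controls as a covariate, that are given below.

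The means of the 46 genes ran from 5.91 (Tyms) to 12.16, and 0 of them lay under the 25th percentile of all probe sets. Tyms lay under the median probe set, and whether genes as dim as Tyms or Orc3 stood above background was not tested. When each gene was set against its own mean over the 8 arrays, the median gene stood at -0.18, -0.34 and -0.19 on the Ind-8 arrays, at 0.21, 0.19 and 0.26 on the Con-3 arrays, and at 0.02 and -0.03 on the tI-3 arrays. The same median over all probe sets ran from -0.0459 to 0.0532.

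**Figure D1:**
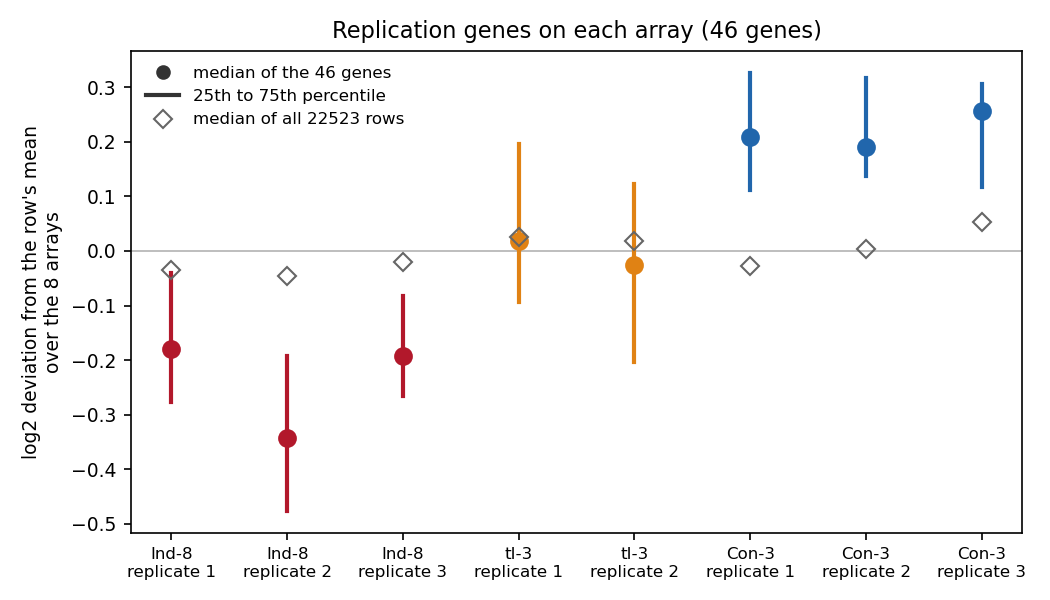
Level of the replication genes on each array, as the log2 deviation from each gene's own mean over the 8 arrays. Points are the median of 46 genes, bars run from the 25th to the 75th percentile, and open diamonds are the median of all 22523 probe sets; the Ind-8 medians lie at or under -0.18, the Con-3 medians at or above 0.19, and the tI-3 medians at 0.02 and -0.03.

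The question that Ind-8 against Con-3 addresses is how cells with induced p53 and asymmetric division differ from p53-null cells. Here 34 of the 46 genes (73.9%) were lower in Ind-8 and 0 were higher by limma, where 11.0% of all probe sets were lower and 10.9% higher. At an unadjusted p under 0.05 limma gave 37 lower and 0 higher. How many of all probe sets pass at an unadjusted p was not counted, here or for the other unadjusted counts below. The median difference was -0.42, against -0.06 over all probe sets, and the genes ran from -1.06 (Rpa2) to 0.14 (Rpa1), with 41 of 46 below 0. Rank products, the method the study's authors used, called 8 of the genes lower and 0 higher, where it called 1.40% of all probe sets lower and 2.22% higher. These 8 were Orc1, Cdc6, Mcm5, Pola1, Pola2, Rpa2, Fen1 and Tk1. In these bulk cultures, fewer cells in S phase and less of each mRNA per cell cannot be told apart.

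Ind-8 against tI-3 sets the asymmetric line beside its symmetric derivative, both with induced p53. Limma called 16 of 46 (34.8%) lower and 0 higher, where 15.5% of all probe sets were lower and 15.6% higher. At an unadjusted p under 0.05 limma gave 20 lower and 2 higher. The median was -0.20, against -0.06 over all probe sets, from -0.87 (Rpa3) to 0.30 (Orc3), with 34 of 46 below 0. Rank products called 0 genes lower and 0 higher, where it called 0.369% of all probe sets lower and 1.60% higher. The limma count fell without either tI-3 array, which leaves 1 array of that line, and the fall over all probe sets is not given. The median was -0.17 without tI-3 replicate 1 and -0.23 without tI-3 replicate 2. With the hybridization controls as a covariate the count was 2 (Gins3 and Rpa3). With that covariate fewer genes passed although the median was -0.24. When the arrays were quantile-normalized again the count was 23, with a median of -0.36. That covariate also reduced the calls over all probe sets, from 3500 to 352 lower and from 3509 to 668 higher.

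The comparison of tI-3 with Con-3 sets 2 symmetric lines side by side, with and without p53. Limma called 14 genes (30.4%) lower in tI-3 and 2 (4.35%) higher, Rpa3 and Chaf1b, where 15.1% of all probe sets were lower and 10.2% higher. The median was -0.21, against 0.04 over all probe sets, from -0.88 (Orc1) to 0.54 (Rpa3), with 36 of 46 below 0. Rank products called 0 genes lower and 0 higher, where it called 1.64% of all probe sets lower and 0.639% higher; at an unadjusted p under 0.05 limma gave 21 lower and 2 higher. The count lower was 8 without tI-3 replicate 2 and 9 with the hybridization controls as a covariate, and the count higher was 1 in each of these fits, 1 without tI-3 replicate 1, and 3 without Con-3 replicate 1. When the arrays were quantile-normalized again 10 were lower and 3 higher, with a median of -0.0884. The 3 comparisons share arrays pairwise and are therefore not independent of each other.

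**Figure D2:**
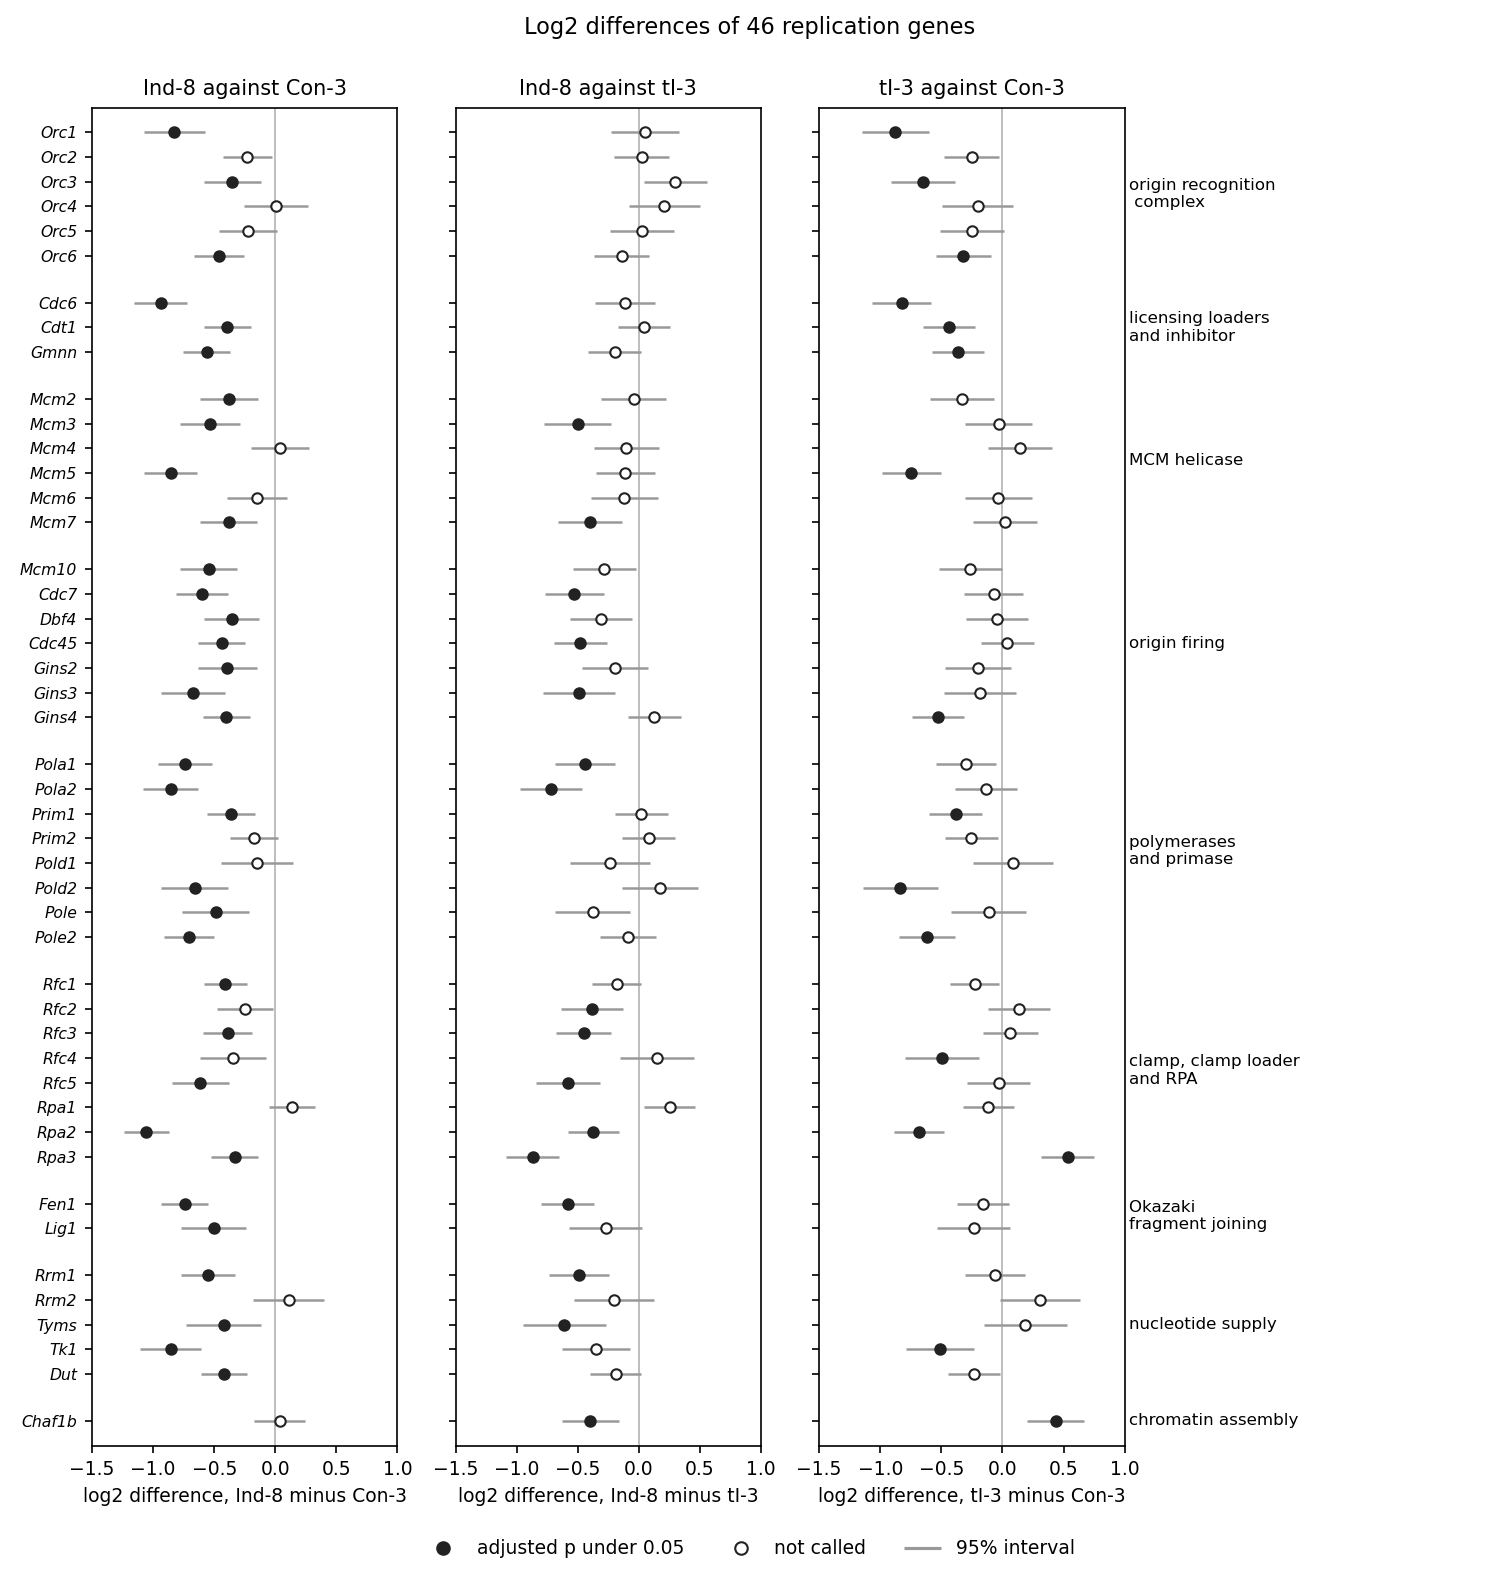
Log2 difference of each of the 46 genes in the 3 comparisons, by role, with its 95% confidence interval from limma; filled points have an adjusted p under 0.05. In Ind-8 against Con-3 the median gene was at -0.42 and 34 points are filled; the medians of the other comparisons were -0.20 and -0.21.

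The promoters of these genes were read for the motifs that mark cell cycle genes, since many of the genes were low in the same line. RefSeq promoters of the mouse build GRCm38.p6, from 250 bases before to 50 bases after the gene start, were matched by symbol to 41 of the 49 genes, with 50 promoters in all. An E2F-type motif, taken as TTTCCCGC, TTTCGCGC, TTTGCCGC or TTTGGCGC on either strand, was found in 14 of the 50 (28.0%), against 744 of all 32851 promoters (2.26%). A CHR-type motif, TTTGAA or TTCGAA on either strand, was found in 10 of the 50 (20.0%), against 6316 of all promoters (19.2%). Among 45 other replication genes the E2F-type motif was in 12 of 43 promoters (27.9%) and the CHR-type in 7 of 43 (16.3%). Among 26 genes of mitosis the order was the other way round, with the E2F-type motif in 1 of 22 promoters (4.55%) and the CHR-type in 16 of 22 (72.7%). Promoters of genes lower in Ind-8 than in Con-3 held the E2F-type motif in 12 of 36 cases (33.3%) and the CHR-type in 10 of 36 (27.8%), and promoters of genes not called held them in 2 of 12 (16.7%) and in 0 of 12. These shares were not tested against each other, and a match is a description of the sequence and not a site.

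**Figure D3:**
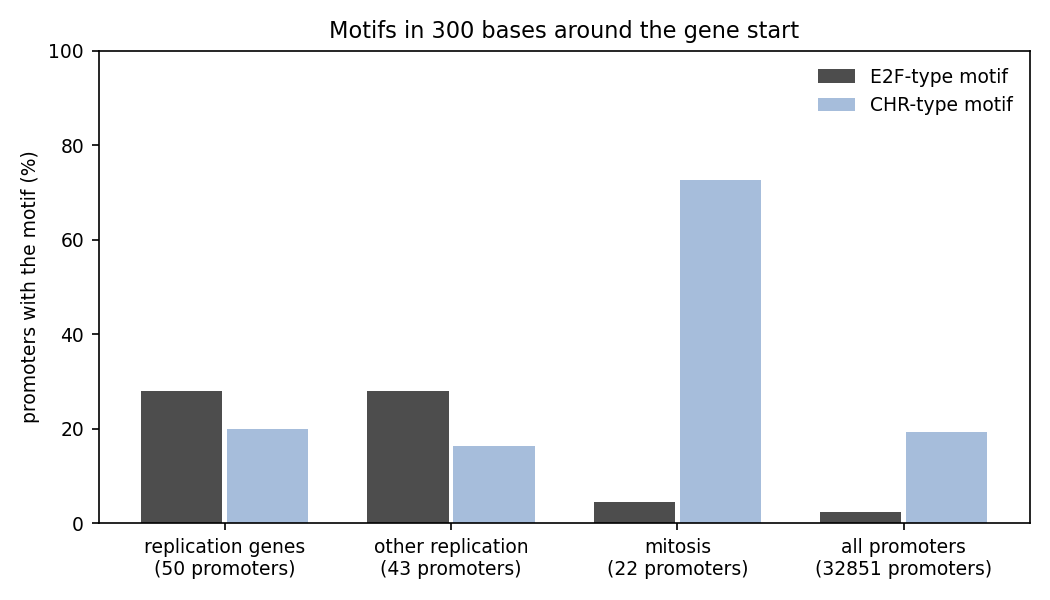
Share of promoters (300 bases each, in percent) that hold an E2F-type or a CHR-type motif, for the replication genes (50 promoters), other replication genes (43), genes of mitosis (22) and all promoters (32851). The E2F-type share was 28.0% in the replication genes and 2.26% in all promoters, and the CHR-type share 72.7% in the genes of mitosis and 19.2% in all promoters.

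Sequences of 6 of these promoters are shown because they let the motif be read beside the expression of the gene: Cdc6, Orc1, Mcm5 and Gins3 were each lower in Ind-8 than in Con-3 with every array left out in turn, Mcm7 carries both motifs, as Gins3 does, and Mcm6, a ring partner of Mcm5 and Mcm7, was not called in any comparison. Each is the 250 bases before the gene start in RefSeq, 5′ to 3′ on the gene's own strand, with matches to either motif in capitals. They lie at chr11:98907901-98908150 on the plus strand (Cdc6), chr4:108579204-108579453 on the plus strand (Orc1), chr8:75109259-75109508 on the plus strand (Mcm5), chr8:95633309-95633558 on the plus strand (Gins3), chr5:138171884-138172133 on the minus strand (Mcm7) and chr1:128359706-128359955 on the minus strand (Mcm6). The Mcm5 run and the longer of the Mcm6 runs each hold 2 overlapping E2F-type matches, on opposite strands. In Gins3 and Mcm7 the TTTGAA and the TTCGAA are CHR-type, and every other run in capitals is E2F-type.
Cdc6: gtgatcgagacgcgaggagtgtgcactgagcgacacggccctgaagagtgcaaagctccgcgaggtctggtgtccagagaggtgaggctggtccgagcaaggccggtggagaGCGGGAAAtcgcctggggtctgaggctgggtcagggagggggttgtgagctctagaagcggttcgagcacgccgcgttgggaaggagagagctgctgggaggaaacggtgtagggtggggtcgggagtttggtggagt
Orc1: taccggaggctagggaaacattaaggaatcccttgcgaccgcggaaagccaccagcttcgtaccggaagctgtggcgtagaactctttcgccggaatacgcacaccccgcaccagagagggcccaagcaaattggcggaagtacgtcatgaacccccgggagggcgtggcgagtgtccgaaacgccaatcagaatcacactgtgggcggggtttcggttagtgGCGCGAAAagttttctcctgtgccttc
Mcm5: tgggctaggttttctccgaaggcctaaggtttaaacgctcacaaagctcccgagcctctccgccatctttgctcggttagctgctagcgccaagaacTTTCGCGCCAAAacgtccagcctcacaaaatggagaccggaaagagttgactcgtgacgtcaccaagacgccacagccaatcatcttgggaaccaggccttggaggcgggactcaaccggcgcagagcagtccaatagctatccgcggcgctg
Gins3: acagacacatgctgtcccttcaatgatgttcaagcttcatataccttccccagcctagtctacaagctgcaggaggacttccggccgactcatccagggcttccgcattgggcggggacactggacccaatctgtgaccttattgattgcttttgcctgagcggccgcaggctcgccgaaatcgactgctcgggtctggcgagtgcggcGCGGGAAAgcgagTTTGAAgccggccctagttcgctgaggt
Mcm7: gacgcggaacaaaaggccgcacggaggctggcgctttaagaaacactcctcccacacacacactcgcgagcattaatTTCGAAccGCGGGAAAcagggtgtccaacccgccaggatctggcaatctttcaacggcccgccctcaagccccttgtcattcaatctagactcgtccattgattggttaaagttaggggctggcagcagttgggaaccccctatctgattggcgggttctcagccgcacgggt
Mcm6: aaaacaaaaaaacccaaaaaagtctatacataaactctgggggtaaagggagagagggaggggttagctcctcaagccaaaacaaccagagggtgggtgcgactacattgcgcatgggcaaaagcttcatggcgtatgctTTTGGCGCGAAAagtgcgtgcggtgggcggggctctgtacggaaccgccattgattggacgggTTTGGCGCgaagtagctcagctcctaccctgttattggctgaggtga
The E2F-type match began 138 bases before the start in Cdc6, 27 before it in Orc1, 153 and 149 in Mcm5, 41 in Gins3, and 165 in Mcm7. Mcm6 held matches at 110, 106 and 47. Mcm7 holds a further E2F-type match past the bases shown, and its other RefSeq promoter, which is not shown, holds neither motif. The promoters shown are all ones with an E2F-type match. A gene with matches could thus be called lower (Mcm5) or not (Mcm6). Genes whose promoter held neither motif were also called lower in Ind-8 than in Con-3, among them Rpa2 (-1.06), Pola2 (-0.86) and Tk1 (-0.86). Of the promoters of genes called lower there, 12 of 36 held the E2F-type motif.

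The origin recognition complex marks the sites where the helicase is loaded. Of its 6 subunits, 3 were lower in Ind-8 than in Con-3 and 3 lower in tI-3 than in Con-3 (50.0% in each, where 11.0% and 15.1% of all probe sets were lower), with medians of -0.29 and -0.29. The count was 2 in Ind-8 against Con-3 without Ind-8 replicate 1, Ind-8 replicate 3, Con-3 replicate 2 or Con-3 replicate 3. It was 2 in tI-3 against Con-3 without any 1 of the arrays other than Con-3 replicate 2, and 2 in both comparisons with the hybridization controls as a covariate. Between Ind-8 and tI-3 limma called 0 of 6, with 0 lower and 1 higher at an unadjusted p under 0.05 and 0 by rank products. The median there was 0.04 and had no fixed direction: it was -0.11 when the arrays were quantile-normalized again, -0.01 without Ind-8 replicate 1, 0.10 without Ind-8 replicate 2 and 0.11 without tI-3 replicate 1. That in tI-3 against Con-3 was -0.16 when quantile-normalized again. Orc1, the subunit that binds and releases chromatin through the cell cycle, read 7.46, 7.04 and 7.30 in Ind-8, 8.12, 8.02 and 8.14 in Con-3, and 7.23 and 7.21 in tI-3. The Con-3 arrays stood above all others, and the tI-3 arrays fell within the span of Ind-8. Orc1 was 1.77-fold lower in Ind-8 than in Con-3 (-0.83, SE 0.112, limma adjusted p 0.000718) and 1.84-fold lower in tI-3 than in Con-3 (-0.88, SE 0.125, limma adjusted p 0.000746), and Ind-8 minus tI-3 was 0.05 (limma adjusted p 0.783).

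Orc3, a core subunit, read 6.05, 6.29 and 6.19 in Ind-8, 6.37, 6.60 and 6.62 in Con-3, and 5.95 and 5.80 in tI-3. There was no overlap between lines, and tI-3 was the lowest. Orc3 was lower in tI-3 than in Con-3 by 0.65 (SE 0.118, limma adjusted p 0.00280). It was lower in Ind-8 than in Con-3 by 0.35 (limma adjusted p 0.0368), a call that was lost without Ind-8 replicate 1 (0.123), Ind-8 replicate 3 (0.0744), Con-3 replicate 2 (0.121) or Con-3 replicate 3 (0.118), with a variance trend (0.0539) and with the hybridization controls as a covariate (-0.32, adjusted p 0.145), in a range of 0.0214 to 0.145. Ind-8 minus tI-3 was 0.30 (limma adjusted p 0.0762). Orc4, another core subunit, read 8.45, 8.52 and 8.30 in Ind-8, 8.64, 8.28 and 8.34 in Con-3, and 8.32 and 8.11 in tI-3. The lines overlapped, and the differences were 0.01 for Ind-8 minus Con-3 (limma adjusted p 0.974), 0.21 for Ind-8 minus tI-3 (limma adjusted p 0.242) and -0.20 for tI-3 minus Con-3 (limma adjusted p 0.293). The other subunits, Orc2, Orc5 and Orc6, differed by -0.23, -0.22 and -0.46 in Ind-8 against Con-3, by 0.02, 0.03 and -0.14 in Ind-8 against tI-3, and by -0.25, -0.25 and -0.32 in tI-3 against Con-3. The call of Orc6 in tI-3 against Con-3 (limma adjusted p 0.0421) was lost in 12 of the 20 alternatives, in a range of 0.0274 to 0.261. Among these were the fits without Ind-8 replicate 1 (0.0540), Ind-8 replicate 2 (0.0561), Ind-8 replicate 3 (0.0585), Con-3 replicate 1 (0.112), Con-3 replicate 3 (0.0722), tI-3 replicate 1 (0.0588) or tI-3 replicate 2 (0.261). Orc2 was the gene with a second distinct probe set, which gave -0.23, -0.03 and -0.20 and was not called in any comparison.

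The loaders Cdc6 and Cdt1 and the inhibitor geminin (Gmnn) were all lower in both p53-carrying lines than in Con-3. In each case 3 of 3 were called, where 11.0% and 15.1% of all probe sets were lower, with medians of -0.56 for Ind-8 and -0.44 for tI-3. Between Ind-8 and tI-3 limma called 0 of 3, with 0 at an unadjusted p under 0.05 and 0 by rank products. The median was -0.11, and it was -0.17 without Ind-8 replicate 3, -0.27 with the hybridization controls as a covariate and -0.26 when quantile-normalized again. In that last fit limma called 1 of the 3 lower, Gmnn (limma adjusted p 0.0325). Cdc6, the ATPase that recruits the helicase with CDT1, read 8.47, 8.45 and 8.63 in Ind-8, 9.60, 9.39 and 9.36 in Con-3, and 8.66 and 8.60 in tI-3. The Con-3 arrays were high, and Ind-8 and tI-3 overlapped at the low level. The means were 8.51 ± 0.0998 (SD, n = 3), 9.45 ± 0.132 (SD, n = 3) and 8.63 ± 0.0454 (SD, n = 2). Cdc6 was 1.92-fold lower in Ind-8 than in Con-3 (-0.94, SE 0.0980, limma adjusted p 0.000160) and 1.77-fold lower in tI-3 than in Con-3 (-0.82, SE 0.110, limma adjusted p 0.000533), and Ind-8 minus tI-3 was -0.11 (limma adjusted p 0.445). Its promoter is shown above.

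Gmnn read 9.78, 9.66 and 9.80 in Ind-8, 10.38, 10.27 and 10.28 in Con-3, and 10.00 and 9.90 in tI-3. The lines did not overlap, and tI-3 lay between the others. Gmnn was 1.48-fold lower in Ind-8 than in Con-3 (-0.56, SE 0.0866, limma adjusted p 0.00143), and Ind-8 minus tI-3 was -0.20 (limma adjusted p 0.140). It was lower in tI-3 than in Con-3 by 0.36 (limma adjusted p 0.0199), a call lost without Con-3 replicate 1 (0.0546) or tI-3 replicate 2 (0.139), when quantile-normalized again (0.0702) and with the hybridization controls as a covariate (-0.32, adjusted p 0.0884), in a range of 0.0102 to 0.139. Cdt1 was lower in Ind-8 than in Con-3 by 0.39 (limma adjusted p 0.00928), and Ind-8 minus tI-3 was 0.04. It was lower in tI-3 than in Con-3 by 0.44 (limma adjusted p 0.00790), a call lost without tI-3 replicate 2 (0.0652), in a range of 0.00258 to 0.0652. The count of 3 in tI-3 against Con-3 was 2 without Con-3 replicate 1, with the covariate or when quantile-normalized again, and 1 without tI-3 replicate 2.

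The 6 subunits of the MCM ring are loaded in equal numbers; their mRNAs differed by -0.86 (Mcm5) to 0.04 (Mcm4) in Ind-8 against Con-3. In Ind-8 against Con-3, 4 of 6 were lower (66.7%, where 11.0% of all probe sets were lower; median -0.38), in Ind-8 against tI-3, 2 of 6 (33.3%, where 15.5% of all probe sets were lower), and in tI-3 against Con-3, 1 of 6 (16.7%, where 15.1% were lower). The median in Ind-8 against tI-3 was -0.11, and it was -0.06 without Ind-8 replicate 2, -0.19 without Ind-8 replicate 1, -0.18 without tI-3 replicate 2, -0.25 with the hybridization controls as a covariate and -0.24 when quantile-normalized again. The median in tI-3 against Con-3 was -0.03 and had no fixed direction. It was -0.07 without Con-3 replicate 1 or tI-3 replicate 1, -0.01 without Con-3 replicate 2, -0.06 without Con-3 replicate 3, 0.00 without tI-3 replicate 2, -0.06 with the covariate and 0.09 when quantile-normalized again. The count of 4 was 2 with the hybridization controls as a covariate or without Ind-8 replicate 2, Con-3 replicate 2 or Con-3 replicate 3, and 3 without Con-3 replicate 1. The count of 2 was 1 without Ind-8 replicate 2 and 0 without either tI-3 array or with that covariate, and the count of 1 was 2 without Ind-8 replicate 2. Mcm5 read 10.04, 9.82 and 10.08 in Ind-8, 10.73, 10.89 and 10.88 in Con-3, and 10.10 and 10.08 in tI-3. The Con-3 arrays stood apart at the high end, and tI-3 lay at or just above the top of the Ind-8 span. Mcm5 was 1.81-fold lower in Ind-8 than in Con-3 (-0.86, SE 0.0973, limma adjusted p 0.000254) and 1.68-fold lower in tI-3 than in Con-3 (-0.75, SE 0.109, limma adjusted p 0.000849), and Ind-8 minus tI-3 was -0.11 (limma adjusted p 0.461).

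Mcm3 read 9.80, 9.43 and 9.70 in Ind-8, 10.08, 10.26 and 10.18 in Con-3, and 10.19 and 10.09 in tI-3. Here Ind-8 stood apart at the low end, and tI-3 lay within the Con-3 span. Mcm3 was 1.45-fold lower in Ind-8 than in Con-3 (-0.53, SE 0.110, limma adjusted p 0.00664), and tI-3 minus Con-3 was -0.03 (limma adjusted p 0.874). It was 1.42-fold lower in Ind-8 than in tI-3 (-0.50, SE 0.123, limma adjusted p 0.0128), a call lost without tI-3 replicate 1 (0.0734) or tI-3 replicate 2 (0.0565), and with the hybridization controls as a covariate (-0.47, adjusted p 0.229), in a range of 0.00544 to 0.229. Mcm4 read 10.57, 10.41 and 10.34 in Ind-8, 10.54, 10.30 and 10.35 in Con-3, and 10.65 and 10.44 in tI-3. The lines overlapped, and the differences were 0.04 for Ind-8 minus Con-3 (limma adjusted p 0.827), -0.10 for Ind-8 minus tI-3 (limma adjusted p 0.529) and 0.14 for tI-3 minus Con-3 (limma adjusted p 0.416). Mcm2 differed by -0.38, -0.04 and -0.33 in Ind-8 against Con-3, Ind-8 against tI-3 and tI-3 against Con-3, and Mcm7 by -0.38, -0.40 and 0.02. Mcm6, whose promoter is shown above, differed by -0.15, -0.12 and -0.03 and was not called.

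**Figure D4:**
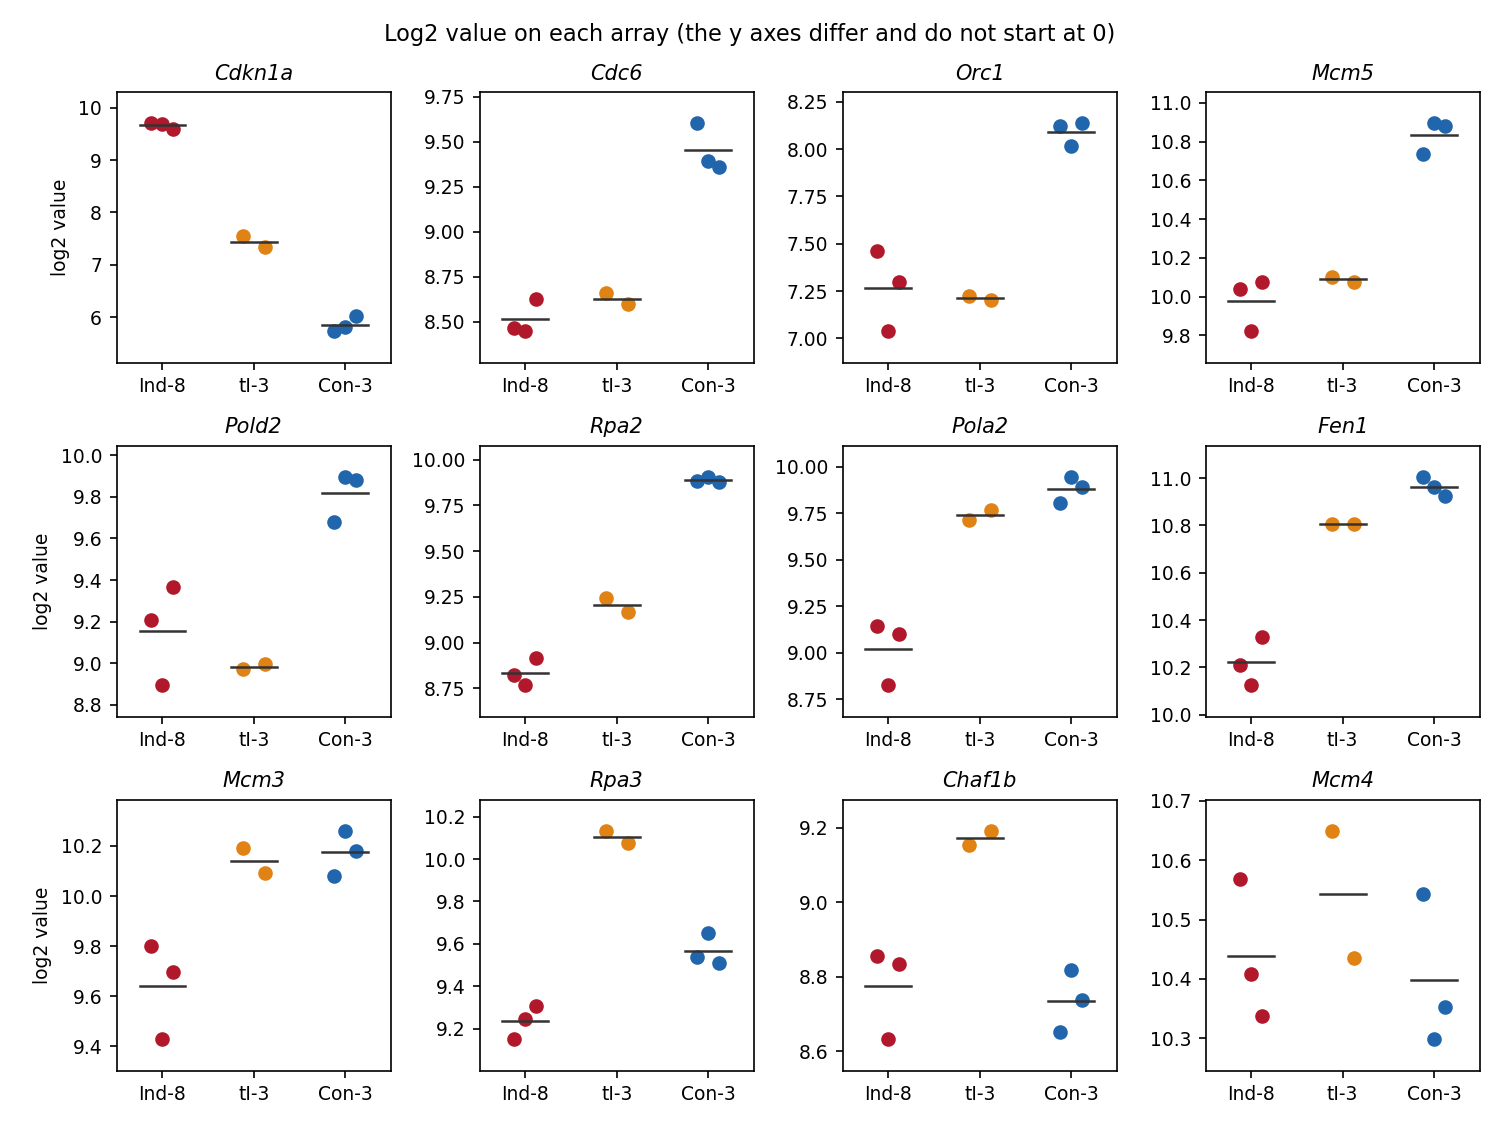
Log2 value on every array for Cdkn1a and 11 replication genes, with a bar at each line's mean; the axes differ between genes and do not start at 0. Cdc6, Orc1, Mcm5 and Pold2 were high in Con-3 only, Pola2, Fen1 and Mcm3 were low in Ind-8 only, Rpa3 and Chaf1b were highest in tI-3, and Mcm4 overlapped between lines.

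The factors that turn a licensed origin into a fork were lower in Ind-8 than in Con-3 in 7 of 7 cases, where 11.0% of all probe sets were lower, with a median of -0.44. The count was 5 with the hybridization controls as a covariate or without Ind-8 replicate 2, Con-3 replicate 2 or Con-3 replicate 3, and 6 without Ind-8 replicate 1, Ind-8 replicate 3 or Con-3 replicate 1. In Ind-8 against tI-3, 3 of 7 were lower (42.9%, where 15.5% of all probe sets were lower; median -0.31; 2 without either tI-3 array and 1 with that covariate), and in tI-3 against Con-3, 1 of 7 (14.3%, where 15.1% of all probe sets were lower; median -0.19). The last median was -0.10 without tI-3 replicate 2, -0.08 with the hybridization controls as a covariate and -0.08 when quantile-normalized again. In Ind-8 against tI-3 the count of 3 rose to 5 when quantile-normalized again, with a median of -0.44. Cdc7, the kinase that phosphorylates the loaded helicase, read 6.64, 6.66 and 6.71 in Ind-8, 7.14, 7.35 and 7.32 in Con-3, and 7.30 and 7.09 in tI-3. Ind-8 stood apart at the low end, while tI-3 and Con-3 overlapped. Cdc7 was 1.52-fold lower in Ind-8 than in Con-3 (-0.60, SE 0.0966, limma adjusted p 0.00178) and 1.44-fold lower than in tI-3 (-0.53, SE 0.108, limma adjusted p 0.00584). The latter call was lost with the hybridization controls as a covariate (-0.50, adjusted p 0.145), in a range of 0.00206 to 0.145. The difference tI-3 minus Con-3 was -0.07 (limma adjusted p 0.669).

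Of the GINS subunits, which join CDC45 and the MCM ring in the active helicase, Gins3 read 6.56, 6.63 and 6.56 in Ind-8, 7.52, 7.14 and 7.11 in Con-3, and 7.16 and 6.98 in tI-3. Ind-8 was low on every array, Con-3 replicate 1 was the highest, and tI-3 overlapped with the other Con-3 arrays. Gins3 was 1.59-fold lower in Ind-8 than in Con-3 (-0.67, SE 0.119, limma adjusted p 0.00300), and tI-3 minus Con-3 was -0.19 (limma adjusted p 0.343). It was 1.40-fold lower in Ind-8 than in tI-3 (-0.49, SE 0.133, limma adjusted p 0.0205), a call lost without Ind-8 replicate 1 (0.0512), tI-3 replicate 1 (0.121) or tI-3 replicate 2 (0.0590), in a range of 0.00649 to 0.121. Gins4, its partner in the complex, read 9.70, 9.86 and 9.87 in Ind-8, 10.19, 10.25 and 10.20 in Con-3, and 9.74 and 9.63 in tI-3. Con-3 stood apart at the high end, and tI-3 overlapped with Ind-8. Gins4 was 1.32-fold lower in Ind-8 than in Con-3 (-0.40, SE 0.0871, limma adjusted p 0.00863) and 1.44-fold lower in tI-3 than in Con-3 (-0.53, SE 0.0974, limma adjusted p 0.00314), and Ind-8 minus tI-3 was 0.13 (limma adjusted p 0.342). The subunits of this complex were thus low in different lines: Gins3 in Ind-8 and Gins4 in both Ind-8 and tI-3, a difference between subunits that was not tested. In the order Ind-8 against Con-3, Ind-8 against tI-3 and tI-3 against Con-3, Gins2 differed by -0.39, -0.19 and -0.20. In the same order the CDC7 partner Dbf4 differed by -0.36, -0.31 and -0.04, the helicase cofactor Cdc45 by -0.44, -0.48 and 0.04, and Mcm10, which helps to activate the helicase, by -0.54, -0.28 and -0.26.

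Of the 8 genes of polymerases alpha, delta and epsilon and of primase, 6 were lower in Ind-8 than in Con-3 (where 11.0% of all probe sets were lower; median -0.58), 2 lower in Ind-8 than in tI-3 (where 15.5% of all probe sets were lower; median -0.16) and 3 lower in tI-3 than in Con-3 (37.5%, against 15.1% of all probe sets; median -0.28). The counts became 4 without Ind-8 replicate 2 for Ind-8 against Con-3, 1 without tI-3 replicate 1 for Ind-8 against tI-3, and 2 without tI-3 replicate 2 for tI-3 against Con-3. In the same order they were 5, 0 and 2 with the hybridization controls as a covariate. The median in Ind-8 against tI-3 was -0.10 without Ind-8 replicate 2, -0.08 without tI-3 replicate 1, -0.10 with the hybridization controls as a covariate and -0.31 when quantile-normalized again. That in tI-3 against Con-3 was -0.17 without tI-3 replicate 2 and -0.16 when quantile-normalized again. Pola2, the regulatory subunit of polymerase alpha, read 9.14, 8.82 and 9.10 in Ind-8, 9.80, 9.94 and 9.89 in Con-3, and 9.72 and 9.77 in tI-3. Ind-8 was low on every array, and tI-3 lay just under Con-3. Pola2 was 1.81-fold lower in Ind-8 than in Con-3 (-0.86, SE 0.102, limma adjusted p 0.000352) and 1.65-fold lower than in tI-3 (-0.72, SE 0.114, limma adjusted p 0.00163). The latter call was lost with the hybridization controls as a covariate (-0.64, adjusted p 0.0857), in a range of 0.000768 to 0.0857. The difference tI-3 minus Con-3 was -0.14 (limma adjusted p 0.422).

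Pold2, the second subunit of polymerase delta, read 9.21, 8.89 and 9.37 in Ind-8, 9.68, 9.89 and 9.88 in Con-3, and 8.97 and 8.99 in tI-3. Con-3 was high on every array, and the tI-3 arrays fell within the wide span of Ind-8. Pold2 was 1.58-fold lower in Ind-8 than in Con-3 (-0.66, SE 0.124, limma adjusted p 0.00418) and 1.78-fold lower in tI-3 than in Con-3 (-0.83, SE 0.139, limma adjusted p 0.00177), and Ind-8 minus tI-3 was 0.17 (limma adjusted p 0.356). In the order Ind-8 against Con-3, Ind-8 against tI-3 and tI-3 against Con-3, the catalytic subunits differed by -0.74, -0.44 and -0.30 for polymerase alpha (Pola1), by -0.15, -0.23 and 0.08 for delta (Pold1), and by -0.49, -0.38 and -0.11 for epsilon (Pole). In the same order Pole2, the second subunit of polymerase epsilon, differed by -0.71, -0.09 and -0.62, and the primase subunits by -0.36, 0.02 and -0.38 (Prim1) and by -0.17, 0.08 and -0.25 (Prim2).

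The clamp loader and the single-strand binding protein RPA held both extremes of Ind-8 against Con-3, Rpa2 and Rpa1. Of 8 genes, 5 were lower in Ind-8 than in Con-3 (where 11.0% of all probe sets were lower; median -0.37) and 5 lower in Ind-8 than in tI-3 (where 15.5% were lower; median -0.38), or 62.5% in each. The first count was 4 without Ind-8 replicate 1, Ind-8 replicate 2 or Con-3 replicate 2. It rose to 6 with the hybridization controls as a covariate, when quantile-normalized again or without Con-3 replicate 1. The second was 4 without Ind-8 replicate 1 or Ind-8 replicate 2, 2 without either tI-3 array and 1 with the hybridization controls as a covariate. In tI-3 against Con-3, 2 were lower and 1 higher, where 15.1% of all probe sets were lower and 10.2% higher. The median of the 8 genes was -0.07, and it was -0.11 without tI-3 replicate 1 or with the hybridization controls as a covariate, and turned to 0.04 when the arrays were quantile-normalized again. The count of 2 was 1 without Con-3 replicate 1, Con-3 replicate 2 or tI-3 replicate 2, with the covariate and when quantile-normalized again. Rpa2, the middle RPA subunit, read 8.82, 8.77 and 8.91 in Ind-8, 9.88, 9.90 and 9.88 in Con-3, and 9.24 and 9.16 in tI-3. Ind-8 was lowest and tI-3 between the others, with no overlap. Rpa2 was 2.08-fold lower in Ind-8 than in Con-3 (-1.06, SE 0.0830, limma adjusted p 3.49e-05) and 1.61-fold lower in tI-3 than in Con-3 (-0.68, SE 0.0928, limma adjusted p 0.000582). It was 1.29-fold lower in Ind-8 than in tI-3 (-0.37, SE 0.0928, limma adjusted p 0.0138), a call lost without tI-3 replicate 1 (0.0754) or tI-3 replicate 2 (0.0553), and with the hybridization controls as a covariate (-0.40, adjusted p 0.169), in a range of 0.00351 to 0.169.

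Rpa3, the small RPA subunit, ran in another order: 9.15, 9.24 and 9.31 in Ind-8, 9.54, 9.65 and 9.51 in Con-3, and 10.13 and 10.07 in tI-3. Here tI-3 was the highest, with no overlap between lines. Rpa3 was 1.83-fold lower in Ind-8 than in tI-3 (-0.87, SE 0.0977, limma adjusted p 0.000255) and 1.45-fold higher in tI-3 than in Con-3 (0.54, SE 0.0977, limma adjusted p 0.00294). It was 1.26-fold lower in Ind-8 than in Con-3 (-0.33, SE 0.0874, limma adjusted p 0.0208), a call lost without Ind-8 replicate 1 (0.0717), Ind-8 replicate 2 (0.0557) or Con-3 replicate 2 (0.0861), in a range of 0.0126 to 0.0861. Rpa1, the large subunit, read 11.59, 11.72 and 11.69 in Ind-8, 11.57, 11.52 and 11.50 in Con-3, and 11.46 and 11.36 in tI-3. None of the lines overlapped, yet the steps between them were small. The differences were 0.14 for Ind-8 minus Con-3 (limma adjusted p 0.294), 0.25 for Ind-8 minus tI-3 (limma adjusted p 0.0633) and -0.12 for tI-3 minus Con-3 (limma adjusted p 0.402). Rpa1 was thus not called in any comparison, while its partners in the complex were called in each; the difference between subunits was not tested.

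The clamp loader places the clamp PCNA, which had no value here, onto DNA. In Ind-8 against Con-3 its subunits Rfc1 to Rfc5 differed by -0.41, -0.25, -0.39, -0.35 and -0.61. In Ind-8 against tI-3 the same subunits differed by -0.18, -0.38, -0.45, 0.15 and -0.58, and in tI-3 against Con-3 by -0.23, 0.14, 0.06, -0.49 and -0.03. Rfc5 was lower in Ind-8 than in Con-3 under each of the 20 alternatives. The sign of Rfc4 in Ind-8 against tI-3, where it was not called, changed in 3 of them.

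Fen1 and Lig1, the nuclease and the ligase that finish Okazaki fragments, were both lower in Ind-8 than in Con-3, where 11.0% of all probe sets were lower, with a median of -0.62. Fen1 read 10.21, 10.12 and 10.33 in Ind-8, 11.00, 10.96 and 10.93 in Con-3, and 10.81 and 10.81 in tI-3. Ind-8 was low on every array, and tI-3 lay just under Con-3. Fen1 was 1.67-fold lower in Ind-8 than in Con-3 (-0.74, SE 0.0867, limma adjusted p 0.000303) and lower than in tI-3 by 0.58 (SE 0.0970, limma adjusted p 0.00210). The latter call was lost with the hybridization controls as a covariate (-0.63, adjusted p 0.0561), in a range of 0.000648 to 0.0561. The difference tI-3 minus Con-3 was -0.16 (limma adjusted p 0.264). Lig1 read 9.59, 9.22 and 9.59 in Ind-8, 9.87, 10.03 and 10.01 in Con-3, and 9.62 and 9.85 in tI-3. The tI-3 arrays lay between the others without overlap. Lig1 was 1.42-fold lower in Ind-8 than in Con-3 (-0.50, SE 0.120, limma adjusted p 0.0128; -0.42 and 0.0781 with the hybridization controls as a covariate, in a range of 0.00804 to 0.0781). Ind-8 minus tI-3 was -0.27 (limma adjusted p 0.147) and tI-3 minus Con-3 was -0.23 (limma adjusted p 0.234). In tI-3 against Con-3 limma called 0 of these 2 genes, with 0 at an unadjusted p under 0.05 and 0 by rank products.

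Of 5 genes of nucleotide supply, 4 were lower in Ind-8 than in Con-3 (where 11.0% of all probe sets were lower; median -0.42; 3 with the hybridization controls as a covariate or without any 1 array other than Ind-8 replicate 1) and 2 lower in Ind-8 than in tI-3 (where 15.5% were lower; 0 without either tI-3 array or with the covariate). The median in the latter was -0.35, and -0.22 without Ind-8 replicate 2. In tI-3 against Con-3, 1 was lower (20.0%, against 15.1% of all probe sets; 0 without either tI-3 array or with the covariate). The median there was -0.06, and it turned to 0.04 when the arrays were quantile-normalized again. It was -0.04 without Con-3 replicate 1, -0.13 without Con-3 replicate 2, -0.02 without Con-3 replicate 3, -0.04 without tI-3 replicate 2 and -0.10 with the hybridization controls as a covariate. Tk1, the thymidine kinase of S phase, read 9.96, 9.57 and 9.94 in Ind-8, 10.75, 10.67 and 10.63 in Con-3, and 10.15 and 10.19 in tI-3. The lines did not overlap, and tI-3 lay between the others. Tk1 was 1.81-fold lower in Ind-8 than in Con-3 (-0.86, SE 0.112, limma adjusted p 0.000619), and Ind-8 minus tI-3 was -0.35 (limma adjusted p 0.0580). Tk1 was called lower in the latter with a variance trend, when quantile-normalized again and with each array centred on its median. It was 1.42-fold lower in tI-3 than in Con-3 (-0.51, SE 0.125, limma adjusted p 0.0136), a call lost without tI-3 replicate 1 (0.0719) or tI-3 replicate 2 (0.0689), and with the hybridization controls as a covariate (-0.49, adjusted p 0.0583), in a range of 0.00451 to 0.0719.

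Tyms, the thymidylate synthase, read 5.83, 5.25 and 5.70 in Ind-8, 6.02, 6.08 and 5.95 in Con-3, and 6.18 and 6.23 in tI-3. The lines did not overlap, and Ind-8 replicate 2 lay well under the rest. Tyms was lower in Ind-8 than in tI-3 by 0.61 (SE 0.153, limma adjusted p 0.0140), a call lost without tI-3 replicate 1 (0.0538) or tI-3 replicate 2 (0.0914), and with the hybridization controls as a covariate (-0.62, adjusted p 0.207), in a range of 0.00946 to 0.207. It was lower in Ind-8 than in Con-3 by 0.42 at the edge of the threshold (limma adjusted p 0.0497). That call was lost without Ind-8 replicate 2 (0.128), Ind-8 replicate 3 (0.0593), Con-3 replicate 1 (0.0915), Con-3 replicate 2 (0.138), Con-3 replicate 3 (0.0851), tI-3 replicate 1 (0.0697) or tI-3 replicate 2 (0.0697), and in 16 of the 20 alternatives in all, in a range of 0.0242 to 0.138. The difference tI-3 minus Con-3 was 0.19 (limma adjusted p 0.413).

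Ribonucleotide reductase makes deoxynucleotides from a large and a small subunit. Rrm2, the small one, read 12.26, 12.06 and 12.13 in Ind-8, 12.33, 11.78 and 12.02 in Con-3, and 12.41 and 12.29 in tI-3. Con-3 spanned a wide range that overlapped with both other lines, and the Ind-8 arrays lay under the tI-3 arrays. The differences were 0.11 for Ind-8 minus Con-3 (limma adjusted p 0.605), -0.20 for Ind-8 minus tI-3 (limma adjusted p 0.315) and 0.31 for tI-3 minus Con-3 (limma adjusted p 0.152). Rrm1, the large subunit, was lower in Ind-8 than in Con-3 by 0.55 (limma adjusted p 0.00320), and tI-3 minus Con-3 was -0.06. It was lower in Ind-8 than in tI-3 by 0.49 (limma adjusted p 0.00874), a call lost without tI-3 replicate 1 (0.0506) or tI-3 replicate 2 (0.0510), and with the hybridization controls as a covariate (-0.41, adjusted p 0.233), in a range of 0.00404 to 0.233. Dut, which removes dUTP from the nucleotide pool, was lower in Ind-8 than in Con-3 by 0.42 (limma adjusted p 0.00587), and its other differences were -0.19 for Ind-8 minus tI-3 and -0.23 for tI-3 minus Con-3. Dut was called lower in Ind-8 than in tI-3 when quantile-normalized again (limma adjusted p 0.0117).

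Chaf1b, a subunit of the chromatin assembly factor that places histones behind the fork, read 8.86, 8.63 and 8.83 in Ind-8, 8.65, 8.82 and 8.74 in Con-3, and 9.15 and 9.19 in tI-3. The tI-3 arrays were the highest, and Ind-8 and Con-3 overlapped. Chaf1b was 1.32-fold lower in Ind-8 than in tI-3 (-0.40, SE 0.105, limma adjusted p 0.0177), a call lost without Ind-8 replicate 2 (0.0535), tI-3 replicate 1 (0.0598) or tI-3 replicate 2 (0.103), and with the hybridization controls as a covariate (-0.34, adjusted p 0.294), in a range of 0.00564 to 0.294. It was 1.35-fold higher in tI-3 than in Con-3 (0.44, SE 0.105, limma adjusted p 0.0123), a call lost without tI-3 replicate 1 (0.0501) or tI-3 replicate 2 (0.0802), and with the hybridization controls as a covariate (0.41, adjusted p 0.0563), in a range of 0.00467 to 0.0802. The difference Ind-8 minus Con-3 was 0.04 (limma adjusted p 0.815).

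Called under each of the 20 alternative limma fits and thresholds in Ind-8 against Con-3 were 17 of the 34 genes: Orc1, Cdc6, Gmnn, Mcm3, Mcm5, Mcm10, Cdc7, Gins3, Pola1, Pola2, Pold2, Pole2, Rfc5, Rpa2, Fen1, Rrm1 and Tk1. They include genes of every role other than chromatin assembly. In tI-3 against Con-3 the same held for 9 of 16: Orc1, Orc3, Cdc6, Mcm5, Gins4, Pold2, Pole2 and Rpa2 on the lower side and Rpa3 on the higher. In Ind-8 against tI-3 it held for Rpa3 alone, 1 of 16. Of the called genes, 0 changed sign under any of these alternatives in any comparison.

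Beyond these genes, 45 other genes of replication had a value, among them fork protection, histone chaperone and nucleotide genes. In Ind-8 against Con-3, 30 (66.7%, where 11.0% of all probe sets were lower) were lower and 0 higher by limma (median -0.47), with 34 lower and 1 higher at an unadjusted p under 0.05. Rank products called 6 lower and 0 higher, where it called 1.40% of all probe sets lower. The limma count was 27 with the hybridization controls as a covariate. They ran from -1.04 for the histone chaperone Asf1b to 0.36 for Rrm2b, a ribonucleotide reductase subunit that p53 is known to induce. Rrm2b was not called there (limma adjusted p 0.199), with overlap between the lines, and tI-3 minus Con-3 was -0.34 (limma adjusted p 0.253). Its means of 5.98 in Ind-8, 5.62 in Con-3 and 5.27 in tI-3 lay under the median probe set. In Ind-8 against tI-3, 11 (24.4%) were lower and 4 (8.89%) higher, where 15.5% of all probe sets were lower and 15.6% higher. At an unadjusted p under 0.05 there were 15 lower and 5 higher, and rank products called 0 lower and 0 higher. The median was -0.12, and it was -0.20 without Ind-8 replicate 1, -0.19 without tI-3 replicate 2, -0.22 with the hybridization controls as a covariate and -0.27 when quantile-normalized again. The lower count became 5 without Ind-8 replicate 2, 7 without Ind-8 replicate 3, 4 without tI-3 replicate 1 and 3 without tI-3 replicate 2, and the higher count 0 without tI-3 replicate 2. With the covariate 1 was lower and 0 higher. The 4 higher, named after their values were seen, were Chtf8 (0.34), Samhd1 (0.46), Pold4 (0.65) and Rrm2b (0.70). Between tI-3 and Con-3, 20 (44.4%, where 15.1% of all probe sets were lower) were lower in tI-3 and 0 higher (median -0.32), with 26 lower and 1 higher at an unadjusted p under 0.05 and 0 by rank products. The lower count became 9 without tI-3 replicate 2 and 12 with the covariate, and the median -0.21 when quantile-normalized again. The lowest there was Ung, the uracil glycosylase, at -0.92, which was also at -0.92 in Ind-8 against Con-3 and at 0.00 in Ind-8 against tI-3.

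A list of genes of mitosis was read beside these, as genes of a later step of the cycle. Of 26, 24 (92.3%, where 11.0% of all probe sets were lower) were lower in Ind-8 than in Con-3 and 0 higher by limma, with 25 lower and 0 higher at an unadjusted p under 0.05. Rank products called 7 lower and 0 higher, where it called 1.40% of all probe sets lower. The limma count was 21 with the hybridization controls as a covariate. The median was -0.56, from -1.06 for Birc5, a chromosomal passenger protein, to -0.03 for Spc25. Against tI-3, 17 (65.4%, where 15.5% of all probe sets were lower) were lower in Ind-8 and 0 higher (median -0.52), with 19 lower and 0 higher at an unadjusted p under 0.05 and 0 by rank products. The count became 11 without tI-3 replicate 1 and 4 with the hybridization controls as a covariate. Between tI-3 and Con-3, 5 (19.2%, where 15.1% of all probe sets were lower) were lower in tI-3 and 0 higher (median -0.07), with 8 lower and 1 higher at an unadjusted p under 0.05 and 0 by rank products. The count became 3 without tI-3 replicate 2 and 4 with the covariate. The median had no fixed direction: it was -0.10 without Con-3 replicate 2, -0.15 without tI-3 replicate 1, 0.01 without tI-3 replicate 2 and 0.04 when quantile-normalized again. The 5, named after their values were seen, were Spc24 (-0.75), Cdca8 (-0.74), Mad2l1 (-0.67), Cdk1 (-0.60) and Birc5 (-0.39). The difference between the lists was not tested. For the 46 replication genes the medians of these comparisons were -0.42, -0.20 and -0.21, and for the genes of mitosis -0.56, -0.52 and -0.07.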

How the data were processed

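mRNA was measured on 8 Affymetrix mouse arrays. The deposited values are log2 RMA values that the authors computed with probe sets redefined by RefSeq transcript; RMA's version was not given, and nothing further was normalized. Of 22587 probe sets, 64 Affymetrix controls were left out and 22523 tested; 18294 (81.2%) were named from a GRCm38.p6 RefSeq table, giving 15653 genes. Probe sets with identical values counted once per gene. limma 3.58.1 (R 4.3.3) fitted the 3 line means to all arrays with its default prior, and calls were made at a Benjamini-Hochberg adjusted p under 0.05. Rank products, named in the study's methods, were re-implemented (100 permutations, pfp, the share of false positives, under 0.05). Both were tested on simulated data. Python 3.11.15, numpy 2.4.6, scipy 1.17.1, pandas 2.3.3 and matplotlib 3.10.9 did the rest.

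The members and lists were chosen with earlier results of these data known. Per-array values are given for Trp53, Cdkn1a and Impdh2 and, within each role, for the members with the largest rise and fall in Ind-8 against Con-3 and the largest difference in each other comparison; others were named for their role. Alternatives changed the test, threshold, minimum change, prior, arrays fitted, replicate block, hybridization control covariate, normalization, dim probe set filter, duplicate handling or control probe sets, and each array was left out in turn.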

Additional observations from a re-analysis of the deposited data

Results flagged for a closer look

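Both of the following are signals in control probe sets, which were left out of the genes tested. The 18S rRNA controls on Con-3 replicate 3 read 4.66 (log2) above the mean of Con-3 replicates 1 and 2. The hybridization controls read 9.05, 9.16 and 9.62 on the Con-3 arrays and 9.43 and 9.71 on the tI-3 arrays. They averaged 0.30 (log2) higher on the tI-3 arrays than on the Con-3 arrays, with overlap. Their part in the gene differences was not tested beyond the fits given with them: without Con-3 replicate 3, 27 genes were lower in Ind-8 than in Con-3 and 13 lower in tI-3 than in Con-3. With the hybridization controls as a covariate the counts lower were 27 in Ind-8 against Con-3, 2 in Ind-8 against tI-3 and 9 in tI-3 against Con-3.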

How the results depend on the processing

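In Ind-8 against Con-3 the count of 34 lower genes became 18 at an absolute log2 difference of at least 0.5 and 8 by rank products, and it ran from 26 to 34 with 1 array left out. In Ind-8 against tI-3 the 16 lower became 2 with the hybridization controls as a covariate, 8 at an adjusted p under 0.01, 7 at the minimum difference of 0.5 and 0 by rank products (20 at an unadjusted p under 0.05 by limma), and 6 to 16 with 1 array left out. The 0 higher there became 1 (Rpa1) with a variance trend. In tI-3 against Con-3 the 14 lower became 9 with the covariate, 9 at 0.01, 9 at the minimum difference and 0 by rank products, and 8 to 14 with 1 array left out. The 2 higher became 1 with the covariate, 1 at 0.01, 1 at the minimum difference and 0 by rank products, and 1 to 3 with 1 array left out. Quantile-normalizing again moved the median in Ind-8 against tI-3 from -0.20 to -0.36 and that in tI-3 against Con-3 from -0.21 to -0.0884. Stricter thresholds lower counts by construction; otherwise the cause was not tested.

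With the replicate number as a block the counts lower were 33, 16 and 14, with 2 higher in the last. Across probe sets, the deviations of Ind-8 and Con-3 arrays of the same number correlated at 0.270, 0.0286 and 0.381, and Ind-8 replicate 2 correlated better with Con-3 replicate 1 (0.117) than with its own number. A left-out tI-3 array leaves 1, assumed to vary like the other lines. No scaling moved the median of all probe sets by over 0.1. Background was not measured, so how far it limits the dimmest genes, such as Tyms, was not tested.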
